A study of Mus musculus with 53 samples.

Results

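Kif26a, Nptx1, Vwa5b1 and Cfap99 are 4 genes picked as near zero in controls at postnatal day 7 (P7) and on in 2 kinds of mutant, and they are described here together. In control cells named as granule neuron lineage none of them exceeded 0.821 CPM, whereas over whole control cerebella only Cfap99 lay under 1 CPM in each pup (CPM, the TMM-normalised share of a library's counts that a gene takes; within the lineage it was not TMM-scaled). They were chosen by name with the P7 values in view, and the rule gives no numeric threshold. All 4 were found among the 55573 genes of the tables of bulk RNA from postnatal day 2 (P2) and among the 57010 genes of the P7 single-cell matrices. The P7 levels of the 4 genes are therefore a description with no test, and the P2 libraries, whose values the rule does not use, carry the tests, though P2 results were also known when the genes were chosen.

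The series deleted transcription factors with Atoh1Cre, a Cre driver active in the rhombic lip and in the granule neuron lineage that descends from it. Insm1 mutants were Atoh1Cre; Insm1fl/fl and their controls Insm1fl/fl. Tead1/2 mutants carried Atoh1Cre with floxed alleles of both Tead1 and Tead2 (fl/fl at each), and their controls carried the same floxed alleles without Cre. Deletion was therefore limited to cells with a history of Atoh1Cre, whereas the RNA came from the whole cerebellum, in which blood vessel, glial and GABAergic cells keep their genes. At P2, whole-cerebellum RNA was taken from individual pups, 4 controls and 4 mutants for Insm1 and 3 controls and 4 mutants for Tead1/2. At P7, cells of 10 cerebella, 1 pup each, were barcoded by split-pool labelling, with 2 controls and 3 mutants for each allele. In each P7 group the pup numbered 1 was dissected with all lobules, and the others without lobules IX and X.

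INSM1 is a zinc finger protein that represses transcription in newborn neurons and endocrine cells, and TEAD1 and TEAD2 are DNA-binding partners of the coactivators YAP and TAZ. Kif26a encodes a kinesin-family protein without motor activity that is known for restraining GDNF and Ret signalling in enteric neurons. Nptx1 encodes neuronal pentraxin 1, a secreted protein that clusters AMPA-type glutamate receptors at synapses. Cfap99 is named for its place among cilia- and flagella-associated proteins, and Vwa5b1 encodes a protein with a von Willebrand factor A domain whose function is little described. Granule neuron progenitors divide in the outer layer of the postnatal cerebellum and give rise to granule neurons, the most abundant neurons of the brain.

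The upstream sequences are shown for the 2 genes on which later paragraphs turn, Kif26a for the match count and Cfap99 for its close neighbour. Each is the 250 bases before the start in the RefSeq table of build GRCm38.p6, written 5′ to 3′ along the gene, with capitals marking matches to TGNNNGGGG, the core of the site that INSM1 recognises, on either strand. Kif26a lies on the plus strand and the window is chr12:112145958-112146207. Cfap99 also lies on the plus strand and the window is chr5:34288415-34288664.
Kif26a: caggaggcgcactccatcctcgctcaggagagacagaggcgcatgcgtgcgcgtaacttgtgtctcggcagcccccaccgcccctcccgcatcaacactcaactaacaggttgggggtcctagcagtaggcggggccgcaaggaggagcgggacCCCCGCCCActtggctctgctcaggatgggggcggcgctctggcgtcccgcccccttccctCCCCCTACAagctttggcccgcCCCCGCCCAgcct
Cfap99: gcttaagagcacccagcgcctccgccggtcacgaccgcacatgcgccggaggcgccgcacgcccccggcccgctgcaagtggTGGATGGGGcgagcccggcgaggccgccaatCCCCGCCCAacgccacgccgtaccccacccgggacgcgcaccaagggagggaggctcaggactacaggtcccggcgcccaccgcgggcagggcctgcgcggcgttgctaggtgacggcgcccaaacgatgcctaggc

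Kif26a had 3 matches to TGNNNGGGG, Cfap99 had 2 and Vwa5b1 had 1, and 23.2% of the 32851 upstream windows of the same length held at least 1. None of the 3 windows held GGAATG, the core TEAD site, or the E-box CAGCTG, which were found in 12.6% and 13.0% of all windows. No upstream window was available for Nptx1, which was not searched. The motifs were searched on both strands, and a match or its lack describes these letters only. Each start lies inside a longer RefSeq gene model of the same gene, 2234 bp from its upstream end for Kif26a, 1938 bp for Cfap99 and 12000 bp for Vwa5b1. The gene models span chr12:112143974-112181747 for Kif26a (ENSMUSG00000021294), chr5:34286727-34328861 for Cfap99 (ENSMUSG00000109572), chr4:138564229-138635992 for Vwa5b1 (ENSMUSG00000028753) and chr11:119538719-119547820 for Nptx1 (ENSMUSG00000025582).

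The P2 tables held 28100000 to 64500000 expected counts per library. The P7 libraries kept 4540 to 10174 cells each, with a median of 6604 to 9714 UMIs (single captured molecules) per cell, and no cell barcode was shared between libraries. Insm1 itself fell from a mean of 47.6 ± 20 CPM (SD, n = 4) to 12.5 ± 3.66 (n = 4) at P2, and from 57.1 to 59.1 CPM in the P7 controls to 5.79 to 14.4 CPM in the mutants. Tead2 stood at 30.2 and 31.1 CPM in the Tead1/2 controls of P7 and at 7.28 to 8.89 CPM in the mutants, while Tead1 was higher in the mutants (1140 to 1330 CPM against 624 and 634), a count over the whole gene that need not reflect the floxed part. The Insm1 controls of P7 had Tead2 at 65.5 and 63.4 CPM, above the Tead1/2 controls, a difference that was not tested. The P2 library labelled Tead1/2 mutant 4 stood apart from the other 3: Myog, the muscle regulator myogenin, was at 0.419 CPM there, at 28.7, 35.0 and 38.0 CPM in mutants 1 to 3, and at 0.20 to 0.307 CPM in the controls. In that library Tead1 was at 43.5 and Tead2 at 26.2 CPM, against 44.7 ± 10.5 and 23.6 ± 2.11 CPM (SD, n = 3) in the controls. Mutants 1 to 3 had Tead1 at 39.1, 38.1 and 50.7 CPM, within the control range, and Tead2 at 19.2, 20.1 and 17.6 CPM, below it, and the Tead1/2 results of the 4 genes at P2 are given with and without it.

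At P2, before the age used to choose them, the 4 genes did not behave as 1 group. Kif26a and Nptx1 were already expressed in controls and rose in the Insm1 mutants, and in the Tead1/2 mutants their calls depended on the library labelled Tead1/2 mutant 4, on the low-count filter and, for Kif26a, on the tool. Vwa5b1 had negative log2 changes that did not pass the edgeR test with the filter and passed 2 alternatives for Tead1/2, and Cfap99 did not exceed 0.551 CPM in any library. Of the 4 genes only Cfap99 was near zero in the P2 controls. In the Insm1 comparison edgeR's quasi-likelihood test called 2 of the 3 members tested, both higher in mutants, against 0.689% of all 19582 genes tested (135 genes) called in either direction and 0.48% called higher. Here and below the threshold of a call is 0.05 on the p adjusted over all genes tested (Benjamini-Hochberg).

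Kif26a values were 28.2, 21.9, 16.3 and 23.7 CPM in controls of the Insm1 allele and 34.7, 45.6, 42.3 and 44.6 CPM in its mutants. No mutant overlapped a control. The fitted log2 change was 0.90 (SE 0.15), or 1.87-fold, with an adjusted p of 0.0254. The call was lost when Insm1 control 2 or 4 or Insm1 mutant 2, 3 or 4 was left out (adjusted p 0.0785 to 0.0998) and with a term for sex (0.164), and the log2 change stayed between 0.77 and 1.03 in the 14 alternatives run.

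Nptx1 values were 27, 24.3, 20.8 and 24.4 CPM in controls of the Insm1 allele and 30, 39.1, 44.5 and 45.6 CPM in its mutants, again with no overlap. Its log2 change was 0.73 (SE 0.13), or 1.66-fold, with an adjusted p of 0.0370. The call was lost without any one of the 4 controls and without Insm1 mutant 2, 3 or 4 (adjusted p 0.0733 to 0.13), and with a term for sex the log2 change was 0.53 (adjusted p 0.206).

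In the Tead1/2 pups, Kif26a stood at 15, 14.0 and 13.2 CPM in the controls and at 34.4, 41.7 and 33.9 CPM in mutants 1 to 3. The library labelled Tead1/2 mutant 4 was at 14.9 CPM, within the control range. With it the log2 change was 1.13 (SE 0.27, adjusted p 0.0969), and without it 1.35 (adjusted p 2.36e-05). Nptx1 behaved likewise, at 17.0, 19.5 and 17.0 CPM in the controls, 33.6, 40.5 and 36.8 CPM in mutants 1 to 3 and 16.9 CPM in the fourth. Its log2 change was 0.81 (SE 0.23, adjusted p 0.121) with all libraries and 1.02 (adjusted p 0.000125) without the fourth.

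None of the 4 members was called with all 7 Tead1/2 libraries, where edgeR called 0 of 20247 genes (0.0%), with 4052 genes at an unadjusted p under 0.05 and 960 (4.74%) called by DESeq2. Without the low-count filter and with all 7 libraries, edgeR called 1287 of 40946 genes tested. Among them were Kif26a (adjusted p 1.02e-09), Nptx1 (5.58e-07) and Vwa5b1 (0.00891). DESeq2 called Kif26a (adjusted p 0.0366) and Vwa5b1 (adjusted p 0.0361), and did not call Nptx1 (adjusted p 0.104). With that library left out 646 genes were called by edgeR, 3.19% of those tested (1.98% higher and 1.22% lower), and Kif26a and Nptx1 were the 2 members among them.

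Vwa5b1 values were 13.6, 9.38, 9.95 and 14.5 CPM in controls of the Insm1 allele and 8.01, 9.81, 8.16 and 9.93 CPM in the mutants, which overlapped. Its log2 change was -0.39 (SE 0.15, adjusted p 0.483). In the Tead1/2 pups it stood at 14.0, 17.4 and 14.0 CPM in the controls and at 10.9, 9.96, 13.6 and 12.7 CPM in the mutants, which did not overlap, with a log2 change of -0.40 (SE 0.12, adjusted p 0.127) and of -0.44 (adjusted p 0.103) without the fourth mutant. Both estimates point down, opposite to the P7 levels below, and neither passed edgeR's test with the low-count filter, while the Tead1/2 estimate was called lower without that filter (-0.39, adjusted p 0.00891) and by DESeq2 (adjusted p 0.0361). Cfap99 lay between 0.126 and 0.551 CPM in the 15 P2 libraries. It did not pass the low-count filter in the Insm1 comparison, and its Tead1/2 log2 change was -0.28 (SE 0.35, adjusted p 0.696), and -0.26 (adjusted p 0.746) without the fourth mutant.

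The effects of both deletions were then compared directly at P2, as a difference of log2 changes, Insm1 minus Tead1/2. It was -0.23 (SE 0.33) for Kif26a, -0.09 (SE 0.29) for Nptx1, 0.00 (SE 0.22) for Vwa5b1 and 0.54 (SE 0.55) for Cfap99, with adjusted p-values from 0.919 to 1.00. Without the library labelled Tead1/2 mutant 4 it was -0.46 (SE 0.21, adjusted p 0.716) for Kif26a, -0.29 (SE 0.18, adjusted p 0.815) for Nptx1, 0.04 (adjusted p 0.989) for Vwa5b1 and 0.52 (adjusted p 0.936) for Cfap99. edgeR called 0 of 20837 genes (0.0%) in this comparison, with 1435 at an unadjusted p under 0.05 and 17 called by DESeq2. A difference in response between the alleles was thus not detected for these 4 genes, which does not show that they respond alike. The libraries of each allele carry a batch label of their own, so P2 levels are compared here only within an allele.

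**Figure D1:**
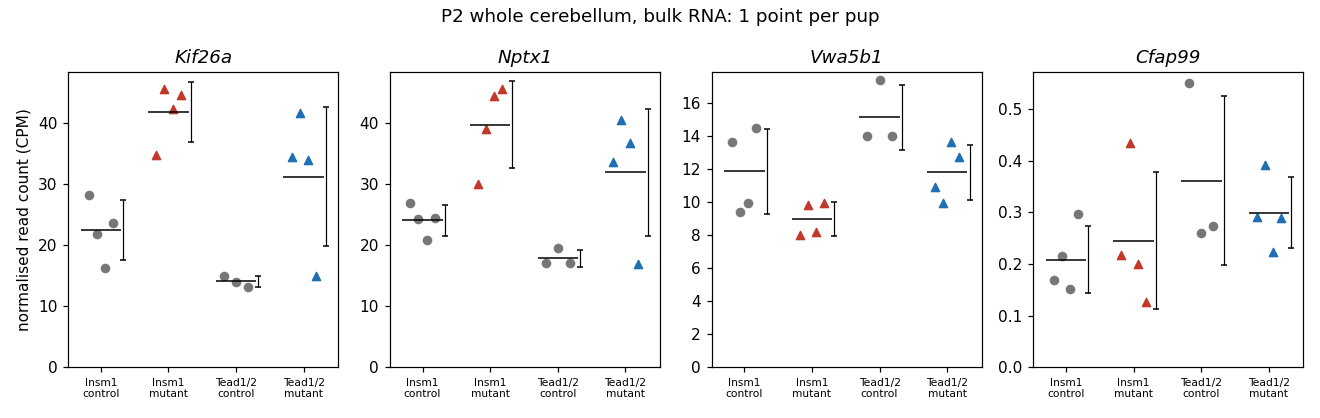
Level of each gene in the P2 libraries in CPM, 1 point per pup, with the group mean as a line and its SD as a bar beside it (n = 4, 4, 3 and 4). Kif26a and Nptx1 lie higher in the mutants except for the library labelled Tead1/2 mutant 4 (14.9 and 16.9 CPM), Vwa5b1 has lower means in the mutants with overlap for Insm1, and Cfap99 does not exceed 0.551 CPM.

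The markers of skeletal muscle were high in the same libraries as Kif26a and Nptx1 at P2. The summed level of 16 muscle markers was 32.9 to 58.2 CPM in the Insm1 controls, 186.0 to 299.0 CPM in the Insm1 mutants, 38.7 to 43.9 CPM in the Tead1/2 controls and 198.0 to 268.0 CPM in Tead1/2 mutants 1 to 3, and 39.1 CPM in the fourth. All 16 were above 0 in each mutant other than that library, where Mymk, the fusion gene myomaker, was at 0. The part of muscle-like cells in the P2 levels was not tested, and in bulk RNA more cells of a type and more RNA per cell cannot be told apart.

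Likeness was measured at P2 as Pearson's r of log2 CPM, centred within each allele, over the 15 libraries. All genes share the differences in depth between these libraries and their mutant-control contrast. The gene most like Kif26a was Nptx1 (r = 0.971), followed by C2cd4c (0.969), Synpo2l (0.964), Cdh15 (0.959) and Mest (0.953). Besides Kif26a, Nptx1 was most like Unc5b (0.964), Cdon (0.961), Synpo2l (0.960) and Rest (0.958). Vwa5b1 followed other genes, led by Crmp1 (0.945) and Gtf3c2 (0.921), and its r was -0.531 with Kif26a and -0.507 with Nptx1. Cfap99, at its low counts, was nearest Slc18a2 (0.881).

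At P7 all 4 genes were higher in each of the 6 mutant pups than in each of the 4 controls, which is what they were chosen for. Beside this count of 4 of 4, 18.1% of all 24097 genes tested were called higher in Insm1 mutants and 25.9% in Tead1/2 mutants, and nothing is read from the count. Those shares are edgeR calls within each allele, a measure unlike the separation of all pups, whose share over all genes is not given. In sums over all kept cells, Kif26a was at 1.99, 2.65, 3.01 and 3.56 CPM in the controls, at 12.5, 15.3 and 20.7 CPM in the Insm1 mutants and at 15.8, 18.5 and 21.8 CPM in the Tead1/2 mutants. Nptx1 was at 2.81, 3.49, 4.13 and 4.23 CPM in the controls, at 23.2, 28.9 and 29.9 CPM in the Insm1 mutants and at 15.5, 19.3 and 20.6 CPM in the Tead1/2 mutants. The mutants of the 2 alleles do not overlap for Nptx1, with the Insm1 mutants higher, a difference that was not tested.

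Vwa5b1 was at 2.22, 1.88, 1.32 and 0.635 CPM in the controls, at 9.35, 6.89 and 9.85 CPM in the Insm1 mutants and at 10.2, 13.1 and 8.52 CPM in the Tead1/2 mutants. Cfap99, the lowest of the 4, was at 0.412 to 0.711 CPM in the controls, 2.29 to 2.49 CPM in the Insm1 mutants and 2.35 to 3.60 CPM in the Tead1/2 mutants. As ratios of group means, the Insm1 mutants stood 6.97 times above their controls for Kif26a, 8.68 times for Nptx1, 4.23 times for Vwa5b1 and 3.49 times for Cfap99. The Tead1/2 ratios were 5.68, 4.42, 10.9 and 5.36 in the same order. Since each mutant lay above each control, the separation holds in any split of the pups. That includes the pups with all lobules and those without lobules IX and X, and the effect of the dissection was not tested.

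In the same sums the summed level of the 16 muscle markers was 57.2 to 85.5 CPM in the controls, 5630.0 to 7050.0 CPM in the Insm1 mutants and 12900.0 to 21600.0 CPM in the Tead1/2 mutants, with all 16 above 0 in every library. Ranked by the gap between the lowest mutant and the highest control, on log2(CPM + 0.5), the whole sums were led by muscle genes, Lincmd1, Trim55, Ttn, Myh3, Mylk4, Actc1, Myog, Tnnt1, 5430431A17Rik and Mypn. Nptx1 ranked 311, Kif26a 337, Vwa5b1 416 and Cfap99 519 of 57010 genes. In whole sums the 4 genes are thus far from the widest gaps.

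The granule lineage was examined next, since it is where Atoh1Cre acts. The 34 clusters were made without the 4 genes among the variable genes. Clusters were called granule progenitor-like (5 clusters, 21669 cells) or granule neuron-like (4 clusters, 13923 cells) from fixed marker lists. Cluster 12 was left unnamed, a choice made after its values were seen. Clusters 4 and 11 also stayed unnamed and out of the lineage, although Slc17a6 and Nrg1 were among their leading genes. They held 2066 and 3400 cells of controls against 52 and 350 of mutants. The leading genes of cluster 11 also included Pax2 and Slc6a5, markers of GABAergic interneurons, and its median was 19801.0 UMIs per cell. In control cells of clusters 4 and 11 Kif26a was at 0.150 and 0.200 CPM and Vwa5b1 at 0.107 and 0.330. Cfap99 was at 0.236 and 0.380 there, and Nptx1 at 0.473 and 6.06. Nptx1 in cluster 11 thus lay above the range of named granule-lineage cells of controls. It lay below the 21.3 to 31.2 CPM of GABAergic interneuron-like cells of controls. The part of GABAergic or joined cells in cluster 11 was not tested. In granule-lineage cells all 4 genes were again higher in each mutant than in each control, beside 13.1% of the 17159 genes tested there called higher in Insm1 mutants and 14.5% in Tead1/2 mutants, and nothing is read from that count either. These shares too are calls within each allele and not the same measure as the separation.

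Kif26a gave 3, 4, 7 and 4 UMIs in the granule-lineage cells of the 4 controls, or 0.0666 to 0.151 CPM (here UMIs of the gene as a share of all UMIs of those cells, not TMM-scaled), over 3825 to 5682 cells each. The same cells of the mutants gave 354, 546 and 417 UMIs with Insm1 deleted (15, 22.3 and 32.0 CPM) and 444, 711 and 825 UMIs with Tead1/2 deleted (22.7, 30.5 and 37.8 CPM). Nptx1 stood at 0.228 to 0.821 CPM in the controls, at 34.9, 39.7 and 49.0 CPM in the Insm1 mutants and at 21.0, 33.2 and 36.7 CPM in the Tead1/2 mutants. No mutant came near a control for either gene, and intervals and floors here cover counting error only.

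Vwa5b1 stood at 0.0622 to 0.133 CPM in granule-lineage cells of the controls, at 7.08, 8.68 and 9.37 in the Insm1 mutants and at 16.6, 28.2 and 13.4 in the Tead1/2 mutants. Here the mutants of the 2 alleles do not overlap, with the Tead1/2 mutants higher, a difference that was not tested. Cfap99 stood at 0.0415 to 0.179 CPM in the controls, at 2.84, 3.42 and 3.38 in the Insm1 mutants and at 3.12, 4.76 and 4.85 in the Tead1/2 mutants. Ranked by the same gap over granule-lineage sums, Kif26a ranked 3 of 57010 genes, Nptx1 ranked 5, Vwa5b1 ranked 14 and Cfap99 ranked 61. The list was headed by Svep1 and Gm14061 and also held Atp2b3, Gdnf, Megf10, Slit3, Tacr1 and Thsd4 among its first 10.

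In granule-lineage cells 73 genes lay under 1 CPM in each control and at 2 CPM or more in each mutant. The 4 genes were among them, which again is close to how they were chosen. Gdnf, the ligand of the Ret pathway, was in that set at no more than 0.151 CPM in any control and at least 9.47 CPM in any mutant, as were the Notch ligand Dll1, the TEAD family member Tead4 and the acetylcholinesterase anchor Colq. The muscle markers were also higher in granule-lineage cells of mutants, at 178.0 to 227.0 CPM with Insm1 deleted and 300 to 532.0 CPM with Tead1/2 deleted against 63.8 to 86.0 CPM in controls, with all 16 above 0 in every library. Myog among them was at 8.95 to 16.8 and 2.76 to 9.54 CPM in the mutants and at 0.45 to 0.726 CPM in the controls. In the microglia-like cluster 27 the same sum was 128.0 to 189.0 CPM with Insm1 deleted and 293.0 to 734.0 CPM with Tead1/2 deleted. It was 61.9 to 199.0 CPM in that cluster of the controls, from few cells per pup. Muscle RNA that reached granule-lineage cells from other cells cannot be told apart here from their own. The part of muscle RNA in the granule-lineage levels of the 4 genes was not tested.

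**Figure D2:**
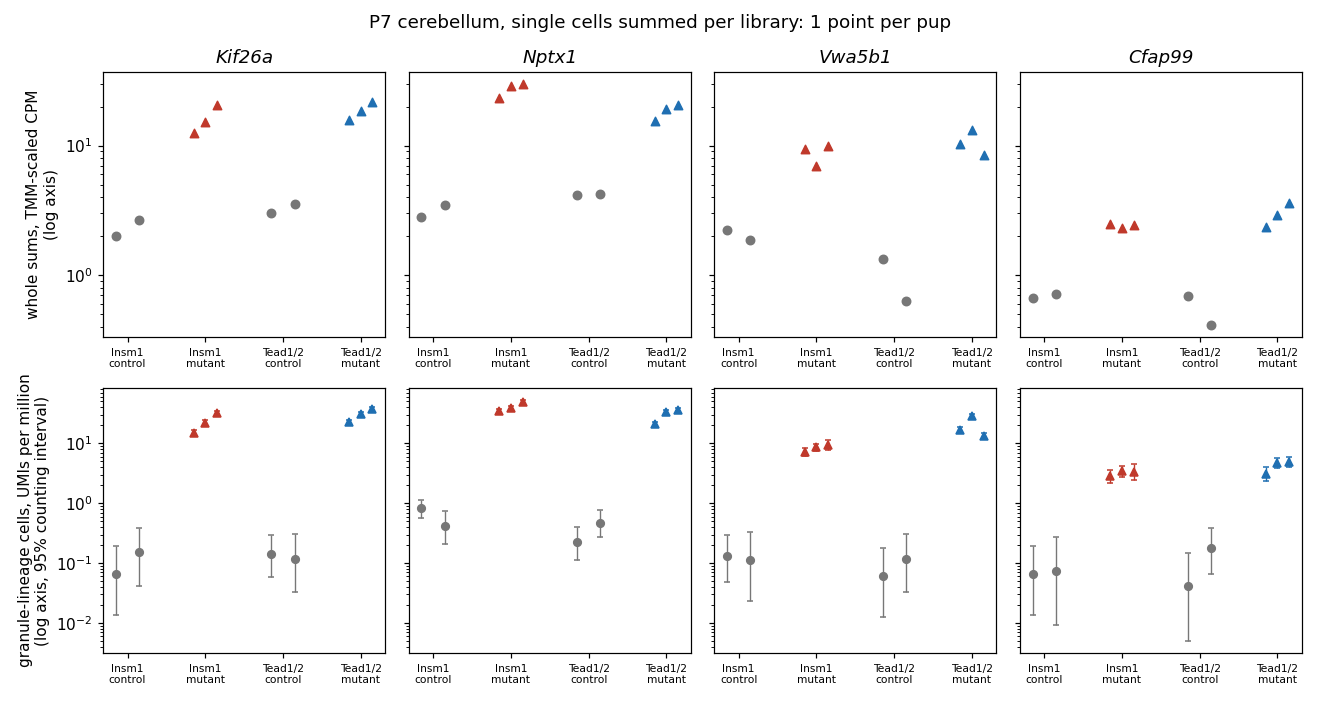
P7 levels by pup on log axes, as TMM-scaled CPM in sums over all kept cells (upper row) and as unscaled CPM in granule-lineage cells with exact 95% Poisson intervals (lower row). Controls are circles and mutants triangles. Each mutant lies above each control in both rows, and Kif26a in granule-lineage cells runs from 0.0666 in the lowest control to 37.8 in the highest mutant.

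The share of granule-lineage cells with a UMI was compared at equal depth, with each cell thinned to 2000 UMIs and 22 to 178 shallower cells per pup left out. Kif26a was seen in 0.0179% to 0.0794% of cells of the controls, in 2.69%, 3.39% and 5.19% of cells of the Insm1 mutants and in 3.41%, 5.23% and 6.68% of cells of the Tead1/2 mutants. Without thinning the shares were 0.0528% to 0.124% in the controls and 7.38% to 20.2% in the mutants, at median depths of 4772.5 to 7770.5 UMIs. Nptx1 reached 5.37% to 9.15% and 3.21% to 6.34% of thinned cells in the 2 kinds of mutant, Vwa5b1 1.42% to 1.79% and 1.95% to 3.81%, and Cfap99 0.576% to 0.896% and 0.473% to 1.17%. In thinned cells of the controls Nptx1 was seen in 0.0251% to 0.106%, Vwa5b1 in 0.018% to 0.0716% and Cfap99 in 0% to 0.0529%. In the microglia-like cluster 27, which should lack these genes and held 38 to 226 cells per pup, thinned cells of Tead1/2 mutants gave shares of 0%, 0.45% and 0.641% for Kif26a, where the count of 0 allows up to 1.92% and the other pups have upper 95% bounds of 2.48% and 3.52%. In the Insm1 mutants none of its thinned cells had a UMI of any of the 4, but so few cells allow a share of up to 5.45% to 7.89%, above the Kif26a shares of the lineage, so that they give no background there. The median depths in this cluster were 3608.5 to 5829.0 UMIs.

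UMIs of several of the genes were seen together in few cells, without thinning. Of the granule-lineage cells, 24.4%, 31.7% and 38.5% in the Insm1 mutants and 22.7%, 36.5% and 38.1% in the Tead1/2 mutants had a UMI of at least 1 of the 4 genes, against 0.388% to 0.827% in the controls. At least 2 of them were seen in 3.74% to 7.83% and in 4.43% to 10.2% of cells of the mutants and in 0 of the 3825 to 5682 cells of each control, which allows a share of up to 0.0528% to 0.0784%. These are shares of cells with a UMI, not of cells that express the genes. A cell with all 4 was seen once in each of 2 Tead1/2 mutants.

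The 4 genes differed in where in the lineage they were highest. In progenitor-like cells Kif26a reached 20.8, 28.9 and 43.2 CPM in the Insm1 mutants and 29.3, 36.0 and 45.6 in the Tead1/2 mutants, and in neuron-like cells 7.69, 12.1 and 14.8 and then 7.72, 18.8 and 19.8. Vwa5b1 was likewise higher in progenitor-like cells of each mutant (8.57 to 11.9 and 17.1 to 35.8 CPM) than in its neuron-like cells (4.53 to 5.46 and 4.87 to 12). Cfap99 went the other way in each mutant, from 0.758 to 1.69 and 1.33 to 3.16 CPM in progenitor-like cells to 5.48 to 7.02 and 7.21 to 10.4 in neuron-like cells. Nptx1 differed least as a ratio, at 41.0, 45.5 and 57.4 against 27.2, 30.9 and 36.1 in the Insm1 mutants and 22.3, 34.0 and 37.9 against 18, 31.4 and 33.9 in the Tead1/2 mutants.

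The levels were concentrated in 4 granule clusters that held 92.7% to 100% cells of mutants, 9 and 25 among the progenitor-like and 23 and 24 among the neuron-like. Ranked within each mutant pup over granule clusters with at least 40 of its cells, Kif26a was highest in cluster 25 in 6 of 6 mutants (84.4, 87.6 and 116.0 CPM with Insm1 deleted, 62.7, 52.5 and 81.4 with Tead1/2 deleted). Nptx1 was highest in cluster 9 in 6 of 6 (60.1, 57.5 and 70.7, then 44.1, 43.9 and 56.9 CPM), and Cfap99 in cluster 24 in 6 of 6 (12.6, 14.5 and 12.7, then 13.3, 14.7 and 15.4 CPM). Zfyve28, whose gene model overlaps that of Cfap99, was among the leading genes of cluster 24, and reads in the overlap cannot be told apart. Vwa5b1 was highest in cluster 25 in the 3 Insm1 mutants, at 31.6, 41.2 and 35.4 CPM against 6.32, 3.84 and 5.35 in cluster 9. In the 3 Tead1/2 mutants it was highest in cluster 9, at 55.9, 68.2 and 44.9 CPM against 16.4, 19.4 and 8.63 in cluster 25. The order of these 2 clusters for Vwa5b1 was thus opposite in the mutants of the 2 alleles, with no overlap between pups, a difference that was not tested. The mutant cells in the other 5 granule clusters, 206 to 1260 per pup, were nearer to controls, with Kif26a at 0.185 to 3.15 CPM and Nptx1 at 5.10 to 15.7 CPM against 0.0673 to 0.152 and 0.209 to 0.740 in controls. Different clusters hold most granule-lineage cells of mutants and of controls, so that the comparison over the lineage is one between largely different clusters.

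Outside the granule lineage the 4 genes were found in different cell types of control pups, where granule-lineage cells held no more than 1.99% of the Kif26a UMIs, 7.41% of the Vwa5b1 UMIs, 8.81% of the Nptx1 UMIs and 17.1% of the Cfap99 UMIs, the last of only 35 UMIs. Kif26a was highest in the endothelial or mural-like cluster, at 36.8 to 81.1 CPM in the 4 controls, followed by oligodendrocyte-lineage-like cells at 7.26 to 20.1. Vwa5b1 and Cfap99 were highest in the ependymal-like cluster, which lines the ventricle with motile cilia, at 32.5 to 80.7 and 21.1 to 47.7 CPM in the controls. Nptx1 was at 21.3 to 31.2 CPM in GABAergic interneuron-like cells of controls and at 7.96 to 34.8 CPM in Purkinje-like cells of controls. The GABAergic interneuron-like cells held 117 Nptx1 UMIs in the Insm1 controls and 208 in the Tead1/2 controls. Control cells of the unnamed cluster 11 held 605, at 6.06 CPM. The granule-lineage shares above do not count clusters 4 and 11, which had Slc17a6 and Nrg1 among their leading genes. The 8.81% for Nptx1 thus depends on cluster 11 staying outside the lineage. Vwa5b1 was also found in meningeal fibroblast-like cells, at 12.4 and 38.4 in the Insm1 controls and 3.61 and 3.87 in the Tead1/2 controls.

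In the mutants the muscle-like clusters, 806 to 3140 cells per mutant pup against 7 to 25 per control, carried the 4 genes as well. They held Kif26a at 10.3 to 17.9 CPM, Nptx1 at 11.2 to 27.1, Vwa5b1 at 6.97 to 15.6 and Cfap99 at 1.27 to 2.44. Of all Kif26a UMIs, 20.5% to 34.1% lay in granule-lineage cells of the mutants and 24.4% to 43.5% in muscle-like cells. Of the UMIs of all genes, 13.0% to 23.9% lay in granule-lineage cells of the mutants and 28.1% to 55.1% in muscle-like cells. Kif26a stood lower in muscle-like cells than in progenitor-like cells of the same pup in each of the 6 mutants, and Nptx1 did so too. Vwa5b1 did so in the 3 Tead1/2 mutants and in Insm1 mutant 2, and stood higher in muscle-like cells of Insm1 mutants 1 and 3 (15.6 and 14.6 against 8.57 and 11.9 CPM). Cfap99 stood higher in muscle-like cells of the 3 Insm1 mutants (1.4, 2.07 and 2.44 against 0.758, 1.69 and 1.01 CPM) and lower in those of the 3 Tead1/2 mutants (1.27, 1.88 and 1.62 against 1.33, 2.14 and 3.16). These progenitor-like levels of Cfap99 rest on 43 UMIs in the Insm1 mutants and 100 in the Tead1/2 mutants. In neuron-like cells, at 5.48 to 7.02 and 7.21 to 10.4 CPM, Cfap99 lay above the muscle-like cells of every mutant.

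Levels in mutants were also higher in several clusters of other types, though not in all. In the oligodendrocyte-lineage-like cluster 2 Kif26a was at 8.67 CPM in controls and 6.57 in mutants, and in the astroglia-like cluster 13 Nptx1 was at 2.27 and 2.22. In the deeper clusters of the same types, Kif26a went from 11.7 to 35.8 CPM in cluster 0 and Nptx1 from 3.46 to 23.6 in cluster 3. The microglia-like cluster 26, with a median of 14782.5 UMIs per cell, had Kif26a at 0.403 CPM in controls and 15 in mutants, whereas cluster 27, with a median of 4764.0, had 0 UMIs in controls and 3 UMIs or 0.805 CPM in mutants (95% interval 0.166 to 2.35), too few to compare. Among GABAergic-like cells, the deep cluster 15 (median 18971.5) had Kif26a at 17.0 CPM in mutants, and the shallower clusters 20 and 21 had 1.11 and 0.713. Nptx1 was higher in mutants in clusters 20 and 21 as well (47.7 and 42.2 CPM against 33.9 and 24.0 in controls), and in the endothelial or mural-like cluster 19 (9.88 against 1.92). The summed muscle markers were at 2780.0 CPM in cluster 15, at 146.0 and 277.0 CPM in clusters 20 and 21, at 660.0 CPM in cluster 26 and at 334.0 CPM in cluster 27, and the part of joined cells in these levels was not tested. The granule clusters 9, 23, 24 and 25 had medians of 5640.0 to 7339.0 UMIs.

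**Figure D3:**
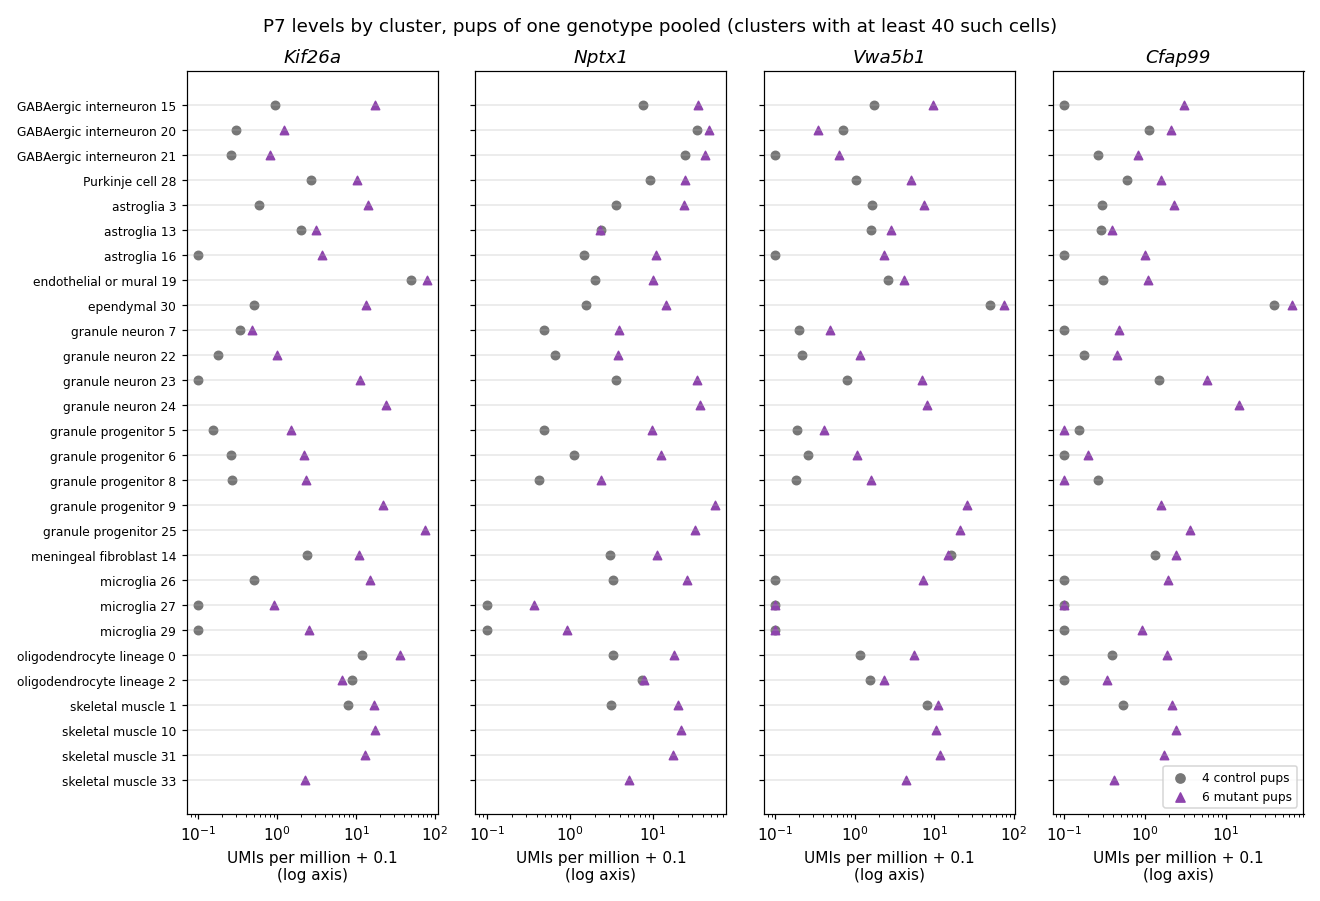
P7 level of each gene by named cluster, in unscaled CPM plus 0.1 on a log axis, so that a point at 0.1 stands for no UMI. Circles pool the 4 controls and triangles the 6 mutants, with no error shown. Pooled over both alleles Kif26a reaches 73.8 in progenitor-like cluster 25, and the ependymal-like cluster is high for Vwa5b1 (49.3 in controls) and Cfap99 (39.0 in controls).

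The nearest protein-coding genes were examined, to see how far a change reached along the chromosome. Zfyve28, the neighbour of Cfap99, was the gene with the clearest change. In the RefSeq table its start lies 341 bp from that of Cfap99 on the opposite strand, and it encodes an endosomal protein that restrains EGF receptor signalling. In granule-lineage sums Zfyve28 stood at 19.4 to 23.4 CPM in the controls, at 123.0, 134.0 and 131.0 CPM in the Insm1 mutants and at 116.0, 159.0 and 151.0 CPM in the Tead1/2 mutants. The log2 change there was 2.69 (SE 0.12, adjusted p 2.21e-08) and 2.71 (SE 0.12, adjusted p 1.53e-08), and in whole sums 1.66 (adjusted p 2.63e-07) and 1.25 (adjusted p 7.46e-07). Unlike Cfap99 it was well expressed in controls. The gene models of this pair overlap, and since whether the counting used strand is not given in the sources used here, reads in the overlap cannot be told apart. At P2 its log2 change was 0.29 (SE 0.09, adjusted p 0.28) for Insm1 and 0.35 (SE 0.12, adjusted p 0.166) for Tead1/2, and 0.46 (adjusted p 0.00762) without the library labelled Tead1/2 mutant 4.

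The other side of Cfap99, Rnf4, which encodes a ubiquitin ligase, had log2 changes of 0.03 (adjusted p 0.702) and -0.28 (adjusted p 0.00169) in whole sums. Rptor, next to Nptx1 and a component of the growth-regulating mTOR complex, had log2 changes of 0.18 (adjusted p 0.0407) and 0.03 (adjusted p 0.713), and Endov of 0.11 (adjusted p 0.245) and 0.05 (adjusted p 0.571). Next to Kif26a, A530016L24Rik had log2 changes of 2.68 (adjusted p 0.00687) and 3.61 (adjusted p 0.000825) at no more than 0.303 CPM, and Aspg 0.63 (adjusted p 0.25) and 1.57 (adjusted p 0.0117) at no more than 0.303 CPM. Next to Vwa5b1, Camk2n1, an inhibitor of the kinase CaMKII, was at 0.07 (adjusted p 0.793) and 0.30 (adjusted p 0.166) on the log2 scale, and Ubxn10, a cilia gene, at 0.47 (adjusted p 0.419) and 2.10 (adjusted p 0.00294). In granule-lineage sums Rnf4 was not called for Tead1/2 (-0.16, adjusted p 0.17), while Camk2n1 (0.73, adjusted p 0.0221) and Endov (0.30, adjusted p 0.035) were called higher for Tead1/2 and Rptor (0.25, adjusted p 0.0136) for Insm1. No neighbour was called at P2 by edgeR with the low-count filter and all libraries. That setting called 0 of 20247 genes for Tead1/2 and 0.689% of all genes for Insm1, so little can be read from this.

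**Figure D4:**
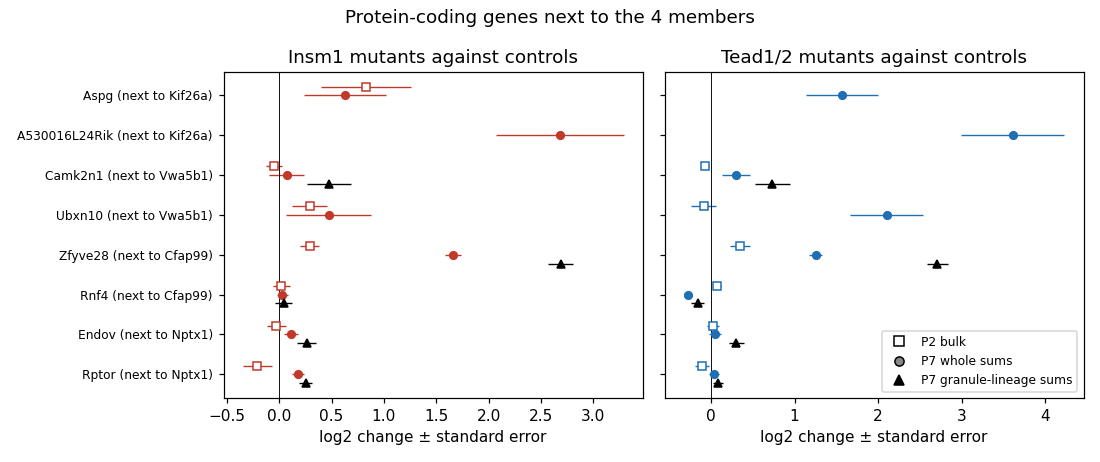
Log2 change ± SE (mutant against control) of the nearest protein-coding gene on each side of the 4 genes, for Insm1 on the left and Tead1/2 on the right, in P2 bulk RNA (open squares), P7 whole sums (filled circles) and P7 granule-lineage sums (black triangles), where a gene passed the count filter. Zfyve28 stands at 2.69 and 2.71 in granule-lineage sums, and Rnf4 at 0.03 and -0.28 in whole sums.

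The families and pathways around the 4 genes were taken from lists, and their P7 tests did not involve the 4 genes themselves. Over all genes, 15.2% were called lower in whole sums of the Insm1 mutants and 22.9% in those of the Tead1/2 mutants, and in granule-lineage sums 8.32% and 9.65%, beside the shares called higher given above. Of 36 other kinesin genes tested in whole sums, 6 were called higher and 16 lower in the Insm1 mutants, and 8 higher and 20 lower in the Tead1/2 mutants, with median log2 changes of -0.12 and -0.19 beside 0.03 and 0.06 over all genes. In granule-lineage sums 3 kinesin genes were called higher and 7 lower in the Insm1 mutants, and 4 higher and 8 lower in the Tead1/2 mutants. Kif26b, the closest relative of Kif26a, rose by 1.42 (SE 0.14, adjusted p 4.7e-05) and 1.09 (SE 0.14, adjusted p 0.000136), and in granule-lineage sums by 2.90 (adjusted p 6.69e-08) and 2.23 (adjusted p 3.02e-07), from 9.29 to 16.2 CPM in controls to 58.2 to 78.7 CPM in mutants. Kif6 rose by 1.52 and 2.57, while the neuronal transport motors Kif5a (-0.67 and -1.10) and Kif5c (-0.52 and -1.13) fell in whole sums. In granule-lineage sums Kif6 was not called (-0.24, adjusted p 0.388, and 0.19, adjusted p 0.452). At P2 Kif26b had log2 changes of -0.13 (adjusted p 0.831) and -0.14 (adjusted p 0.533), the latter -0.15 (adjusted p 0.531) without the library labelled Tead1/2 mutant 4.

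Of 8 genes of GDNF and Ret signalling, the pathway in which Kif26a is known, 3 were called higher and 4 lower in whole sums of the Insm1 mutants, and 3 higher and 3 lower in those of the Tead1/2 mutants. In granule-lineage sums 2 were called higher and 2 lower with Insm1 deleted, and 2 higher and 0 lower with Tead1/2 deleted. Gdnf rose by 6.64 (adjusted p 1.41e-07) and 7.58 (adjusted p 4.55e-08), and Ret, its receptor kinase, fell by 1.11 on the log2 scale in whole sums of both. In granule-lineage sums Ret fell by 1.20 in the Insm1 mutants, and its log2 change in the Tead1/2 mutants was -0.32 (adjusted p 0.337). At P2 Gdnf was the only one of the 8 called in the Insm1 comparison, with a log2 change of 2.10 (SE 0.30, adjusted p 0.00964). In the Tead1/2 comparison its log2 change was 1.82 (adjusted p 0.122), and 2.12 (adjusted p 0.00252) without the library labelled Tead1/2 mutant 4, when Ret was called too at -0.63 (adjusted p 0.00633). DESeq2 called Ret with all libraries (-0.46, adjusted p 0.0435).

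Of 9 genes of the pentraxin and AMPA receptor list, 0 were called higher in either P7 whole-sum comparison, and 5 and 7 were called lower, with median log2 changes of -0.31 and -0.75. Gria4 (-1.23 and -1.71) and Gria2 (-0.67 and -1.29), both AMPA receptor subunits, Cacng2, the auxiliary subunit stargazin (-1.11 and -1.59), and Nptx2, the relative of Nptx1 (-0.91 and -0.75), were among them. In granule-lineage sums Gria1 was the 1 gene of the list called higher with Tead1/2 deleted, by 1.27 (adjusted p 3.88e-05), while the log2 change of Nptx2 was -0.49 (adjusted p 0.0427) and 0.06 (adjusted p 0.824). Of the 9 genes, 1 was called higher and 4 lower there in the mutants of each allele.

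Of 39 other genes named Cfap, 2 were called higher and 4 lower in whole sums of the Insm1 mutants and 9 higher and 5 lower in those of the Tead1/2 mutants, with medians of -0.11 and 0.70. The ependymal-like cluster held 43 and 34 cells in the Insm1 controls and 28, 3 and 9 in the mutants, and 47 and 15 in the Tead1/2 controls and 27, 77 and 63 in the mutants, and its part in these whole-sum counts was not tested. Of 22 motile cilia genes, 1 and 8 were called higher and 3 and 4 lower. In granule-lineage sums 19 of them were tested, of which 3 and 8 were called higher and 1 and 1 lower, with medians of 0.10 and 0.35. Among these Foxj1, the master regulator of motile cilia, rose by 2.79 and 3.20 and Drc1, a regulator of the ciliary dynein complex, by 1.95 and 3.54, while Mcidas, an inducer of multiciliated cells, fell by 1.76 and 1.62 on the log2 scale and Hydin, a gene of the ciliary axoneme, was not called (-0.05, adjusted p 0.9, and 0.31, adjusted p 0.278). Of 27 Cfap genes tested there, 4 and 7 were called higher and 4 and 3 lower, with Cfap100 (1.88 and 1.20) and Cfap54 (1.41 and 2.77) among the former and Cfap77 (-0.54 and -0.67) among the latter. Of the 7 relatives of Vwa5b1 tested in whole sums, 2 were called higher in the Insm1 mutants and 5 in the Tead1/2 mutants, none lower. In granule-lineage sums 4 were tested, with 1 called higher and 0 lower for each allele and medians of 0.06 and 0.01. In whole sums the close relative Vwa5b2 was not called (0.11, adjusted p 0.688, and -0.36, adjusted p 0.154). At P2 no gene of the kinesin, Cfap, motile cilia, pentraxin or Vwa5b1 lists was called by edgeR with the low-count filter and all libraries. For Tead1/2 that setting called 0 of 20247 genes, so no list could hold a call. For Insm1 it called 0.689% of all genes, too few to read a lack of calls in short lists. For Tead1/2, DESeq2 called Kif3c (-0.24, adjusted p 0.00409), Kif5a (-0.33, adjusted p 0.00341), Vwa5b2 (-0.52, adjusted p 0.0279) and Hydin (-0.64, adjusted p 0.0285) lower. It called 4.74% of all genes in either direction there. With the fourth Tead1/2 mutant left out, 2 kinesin genes were called lower by edgeR, Kif3c (adjusted p 0.0491) and Kif5a (adjusted p 0.0454), and 0 genes of the other 4 lists. Over all genes 1.22% were called lower and 1.98% higher in that setting.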

How the data were processed

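The 4 genes, the gene lists and the marker lists were chosen with earlier results of these data, P2 included, known. P2 RNA of individual pups was aligned with STAR 2.7.9a and counted with RSEM 1.3.3, per the submitters' processing notes, and the authors deposited expected counts per gene (6.84% to 8.77% of values per library not whole), which were rounded here. P7 values are counts of UMIs per cell, deposited by the authors as matrices with cell tables of other values, which name the library. The P2 library kit keeps strand, per the labels, and whether counting used it is not given in the sources used here. Spike-in rows (92) were left out of the P2 tables.

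Tests used edgeR 4.0.16 (R 4.3.3, limma 3.58.1) quasi-likelihood fits with TMM factors, filterByExpr and Benjamini-Hochberg adjustment, 2-sided. DESeq2 1.42.0 was an alternative, as were RLE factors, no filter, leaving out each library, 1 fit of all 15 libraries, a term for sex and the replicate number as a block. Sex was inferred for each P2 library, as female where Xist counts exceeded Ddx3y counts and as male otherwise. The split of the inferred sexes over the groups is not given here. Tests on simulated counts with 200 changed genes recovered 78% of 2-fold changes for P2 Insm1 (19582 genes) and 60% for P2 Tead1/2 (20247 genes). They also gave 16 false calls for P2 Insm1 and 6 for P2 Tead1/2. With the real counts of all Tead1/2 libraries edgeR called 0 of 20247 genes, so the 60% need not hold there. Recovery with a library like Tead1/2 mutant 4 among the mutants was not tested.

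P7 cells with at least 1000 UMIs, 500 genes and at most 15% mitochondrial UMIs numbered 79838. The doublet caller's own threshold marked 0.0% to 56.9% of cells per library and did not work, so the 5% of cells with the highest doublet scores were removed from each library, leaving 75846. Clustering used scanpy 1.11.5 (2000 variable genes without the 4 members, 30 components, 15 neighbours, resolution 1.0), and names were rebuilt from markers. Sums per library were compared as CPM. Intervals are exact and at 95%. Limits given for a count of 0 are 3 counts.

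Genes are named as follows: the 4 members, up to 3 called genes per list, the nearest coding neighbours, the 5 genes most alike at P2, the 10 widest gaps at P7, and the deleted genes with Myog. Dll1, Tead4, Colq and Vwa5b2, and list genes outside that rule, were chosen after their values were seen. RefSeq symbols matched all 4 members.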

Additional observations from a re-analysis of the deposited data

Results flagged for a closer look

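Myog and Gmnc were picked out by fixed rules among the per-library values of the members, the deleted genes and Myog, and among the list genes. In the Insm1 controls of P2, Myog was at 3.92 CPM in control 2 and at 0.482, 0.00 and 0.0894 CPM in the other 3, a gap above the 95% limit of Dixon for 4 samples. With 24 groups of 4 looked at, chance alone flags about 1 in 20. Kif26a and Nptx1 in that library were at 21.9 and 24.3 CPM, within the range of the other controls.

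Gmnc, a regulator of multiciliated cells in the motile cilia list beside Cfap99, moved in opposite directions at P7. Its log2 change in whole sums was 1.02 in the Insm1 mutants and -1.64 in the Tead1/2 mutants, with every mutant on one side of every control of its allele. The values were 1.97 and 1.6 CPM in the Insm1 controls and 4.18, 3.58 and 3.0 in the mutants, and 6.95 and 2.81 CPM in the Tead1/2 controls and 1.58, 1.25 and 1.96 in the mutants, so that the size of the Tead1/2 change rests largely on control 1. The difference between the alleles was not tested. In granule-lineage sums Gmnc rose in both, by 1.85 and 0.67.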

How the results depend on the processing

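Of 169 values of the 4 genes at P2 under alternatives, 129 kept their direction and their side of the threshold, 18 lost a call, 9 gained one and 13 changed sign. In the Insm1 comparison Kif26a lost its call in 8 of 14 alternatives (adjusted p 7.95e-06 to 0.164 over all) and Nptx1 in 10 of 14 (8.22e-05 to 0.227), with 1 fit of all 15 libraries giving 0.0957 and 0.131. The Tead1/2 change of Cfap99 was 0.16 without control 1 (-0.50 to 0.16 over the libraries left out). The difference between alleles for Vwa5b1, 0.00, was -0.0 with DESeq2 and with RLE factors, -0.03 with no filter and -0.10 to 0.12 with 1 library left out, and that for Nptx1 ran from -0.29 to 0.04. The causes were not tested.

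Genes called in the P2 Insm1 comparison numbered 135, and 312 with DESeq2, 212 with no filter, 88 with a term for sex and 64 to 132 with 1 library left out. For Tead1/2 the count of 0 became 960 with DESeq2, 1287 with no filter, 4 with all 15 libraries, 3 with a term for sex and 0 to 646 with 1 library left out. For the difference between alleles it became 17 with DESeq2, 11 with no filter and 0 to 8 with 1 library left out. At P7, 8038 genes were called for Insm1, 5116 at the doublet caller's own threshold and 3669 in granule-lineage cells, and 11742 for Tead1/2, 4144 in granule-lineage cells. Leaving out 1 P7 library gave 5524 to 8560 and 8617 to 11778 genes. All 4 members kept every mutant above every control in the other P7 cell sets and on raw totals. They were chosen for such values. Leaving out 1 library cannot undo that separation, so those runs are no check of it.

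The replicate numbers do not pair the P2 samples: same-numbered residuals had correlations of -0.131 to 0.227 for Insm1 and -0.0524 to -0.0128 for Tead1/2. With the replicate block, 64 genes were called for Insm1 and 236 for Tead1/2, and the adjusted p of Kif26a was 0.148 and 0.000436, that of Nptx1 0.227 and 0.000528. For Tead1/2 no control shares the number of mutant 4, which then adds nothing to the contrast.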
